A study of Mus musculus with 12 samples.

Results

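The cytosolic ribosomal protein genes encode the protein parts of the ribosome that translates nuclear-encoded mRNA. They were taken by symbol from the array's probe-to-gene table: Rpl or Rps followed by a number with an optional a, x, y or l, plus Rplp0, Rplp1, Rplp2 and Rpsa, leaving out the Rps6k kinases. Such a symbol belonged to 59 genes. A probe counted as measured when its detection p was below 0.05 on 3 or more of 12 arrays, which left 53 ribosomal protein genes of 12732 measured genes in all. They comprise 31 of 35 large subunit genes and 22 of 24 small subunit genes. Each gene is given by its brightest detected probe. All 53 were detected on all 12 arrays, so none just met the rule of 3 arrays, although the dimmest, Rpsa, lay close to background. Outside the rule were Rpl6, detected on 2 arrays, Rpl14, detected on 1, and Rpl17, Rpl39l, Rps20 and Rps23, detected on 0.

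A ribosome is built from a small subunit, which reads the mRNA, and a large subunit, which joins the amino acids, and each ribosomal protein is needed in nearly equal numbers with the others. In mammals most of these genes are housekeeping genes whose mRNAs begin with a run of pyrimidines, the terminal oligopyrimidine (TOP) tract, through which mTOR signalling controls their translation. In striatal neurons, phosphorylation of the small subunit protein Rps6 is widely used as a sign of recent activity. Arrays measure mRNA levels only, not phosphorylation or translation.

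RNA came from punches of the nucleus accumbens, the ventral part of the striatum and a main target of dopamine neurons, of C57BL/6J mice aged 8 to 10 weeks, 1 h after the last of 15 daily intraperitoneal injections. In the acute group 14 injections of saline were followed by a single dose of cocaine (1 injection, 20 mg/kg, the dose used throughout). The repeated group received saline 7 times followed by cocaine 8 times. The withdrawal group received cocaine 7 times, saline 7 times and a cocaine challenge, so all 3 cocaine groups had cocaine 1 h before dissection. The saline group was injected with saline on all 15 days. Each group had 3 Illumina MouseWG-6 v2.0 arrays, and each array carried RNA pooled from 4 mice, so that a pool is the replicate and differences among its mice cannot be seen.

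The arrays detected 22189 to 23803 of their 45281 probes. Of 15 listed markers of medium spiny neurons, the main cell type of the region, 13 had a probe, and 12 were detected on all 12 arrays, Drd1, Drd2, Ppp1r1b and Penk among them, while Adcy5 did not pass the detection filter. All values are log2 of the background-subtracted intensity. The authors had quantile normalized the arrays, which gives each array the same overall distribution, so every difference is relative to the other transcripts of the same arrays. In such pooled tissue, fewer cells of a type and less RNA per cell cannot be told apart.

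RefSeq's promoter table (GRCm38.p6) held at least 1 window of 250 bases before to 50 bases after the start for 44 of the 53 genes. The 6 windows below, from 60 bases before the start to 20 after it, belong to genes whose values are described further on. Capitals mark a run of 8 or more pyrimidines that lies within 20 bases of the annotated start, on either side. Such a run can hold bases before the start and depends on its annotation, so its presence or absence is no call of a TOP tract. The first 5 windows have such a run and Rpl24, which had the smallest p of the 53 genes in repeated minus saline, has none.
Rps6, chr4:86857348-86857427, minus strand: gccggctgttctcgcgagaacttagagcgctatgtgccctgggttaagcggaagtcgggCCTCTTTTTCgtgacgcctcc
Rpl7a, chr2:26910747-26910826, plus strand: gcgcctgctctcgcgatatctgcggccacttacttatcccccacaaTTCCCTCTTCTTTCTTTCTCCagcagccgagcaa
Rplp2, chr7:141447591-141447670, plus strand: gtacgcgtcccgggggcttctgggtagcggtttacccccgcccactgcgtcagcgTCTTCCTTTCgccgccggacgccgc
Rpl28, chr7:4792905-4792984, plus strand: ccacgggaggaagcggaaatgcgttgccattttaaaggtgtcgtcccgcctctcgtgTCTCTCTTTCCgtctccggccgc
Rpl13a, chr7:45128726-45128805, minus strand: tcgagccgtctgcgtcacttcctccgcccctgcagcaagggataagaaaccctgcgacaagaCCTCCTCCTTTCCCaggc
Rpl24, chr16:55966215-55966294, plus strand: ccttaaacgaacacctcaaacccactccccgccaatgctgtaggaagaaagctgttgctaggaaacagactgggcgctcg

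Counted by gene, with a match in any of its windows, a pyrimidine run of this kind was present for 21 of the 44 genes (47.7%), against 18.4% of 27025 genes. Over the whole windows and on both strands, CCGGAAG, the core recognised by ETS factors, was found in 20 (45.5%), against 9.93% of all genes. AAGATGG, which holds the YY1 core, was found in 7 (15.9%), against 7.28%. The GC box GGGCGG was found in 28 (63.6%), against 38.2%, and the TATA element TATAAA in 5 (11.4%), against 15.7%. Single matches are letters in a window, not bound sites. The values were also set out by the pyrimidine run. In repeated minus saline the median log2 difference was −0.14 over the 21 genes with a run and −0.15 over the 23 without, and in withdrawal minus saline both medians were −0.15. In acute minus saline the medians were −0.11 with a run and −0.08 without. They lay farther apart in repeated minus acute, at −0.01 with a run (12 of 21 genes lower) and −0.08 without (18 of 23 lower).

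Across the 53 genes, each cocaine group lay slightly below saline. For each gene the deviation of every array from the gene's own mean over 12 arrays was taken, and the median over genes is one value per array. It was 0.015, 0.031 and −0.058 on the acute arrays, −0.020, −0.079 and −0.077 on the repeated arrays, −0.095, −0.021 and 0.016 on the withdrawal arrays, and 0.090, 0.112 and 0.075 on the saline arrays. The 3 saline arrays were the 3 highest of the 12. Over all kept probes the same median lay between −0.019 and 0.011. Counted by gene, 22, 23 and 43 of the 53 lay below their own mean on the acute arrays, 33, 41 and 40 on the repeated arrays, 44, 34 and 22 on the withdrawal arrays, and 10, 7 and 9 on the saline arrays. Acute pool 3 and withdrawal pool 1 were the lowest of their groups, whereas acute pools 1 and 2 and withdrawal pool 3 lay above 0 but below every saline array.

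**Figure D1:**
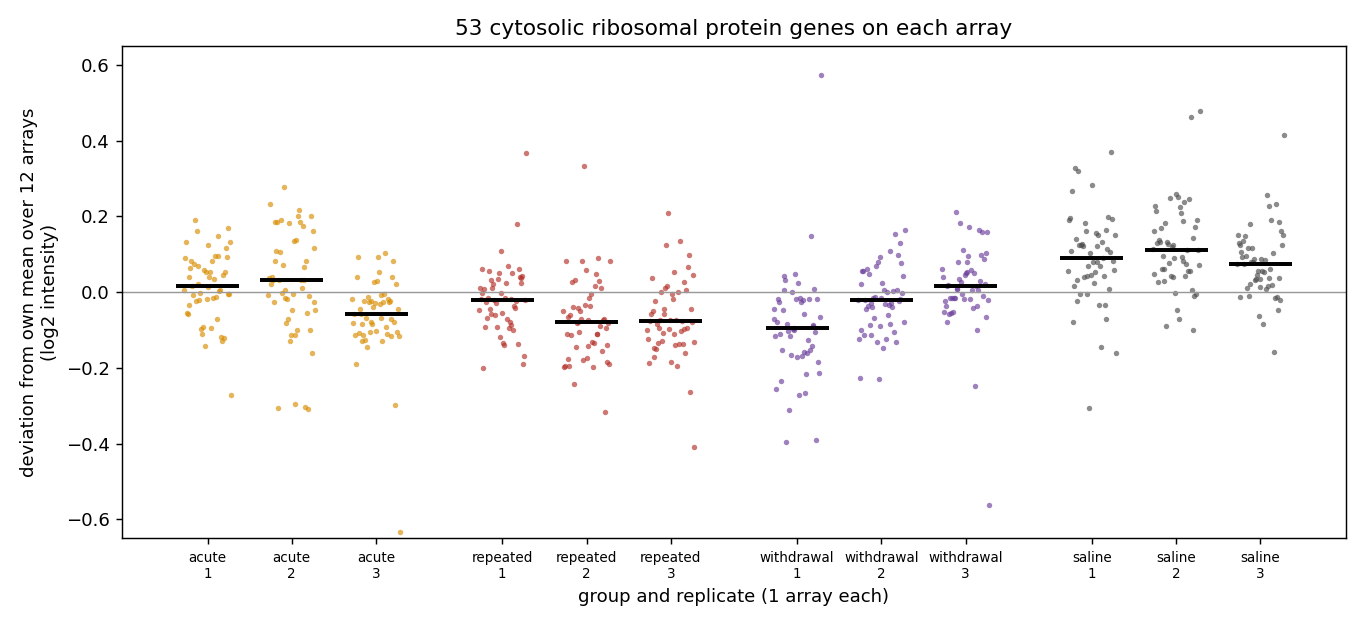
Deviation of each of the 53 genes from its own mean over 12 arrays (vertical axis, log2 intensity) on each array (horizontal axis, group and replicate). Points are genes and bars are medians; the saline medians lie between 0.075 and 0.112, and those of the 9 cocaine arrays between −0.095 and 0.031.

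The summed background-subtracted intensity of the 53 probes also placed the saline arrays highest. It was 523326, 518712 and 508177 on the acute arrays, 511848, 496647 and 503991 on the repeated arrays, 499195, 516877 and 533453 on the withdrawal arrays, and 545792, 543705 and 535468 on the saline arrays. The lowest saline sum, on saline pool 3, was only a little above the highest cocaine sum, on withdrawal pool 3. Of the 53 genes, 30 had their highest value on a saline array, against 29.0% of all kept probes. The lowest of the 4 group means was the acute mean for 9 genes (24.5% of all kept probes), the repeated mean for 25 (24.1%), the withdrawal mean for 17 (23.1%) and the saline mean for 2 (28.1%).

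The acute group shows the response to a single cocaine dose in mice that had not met the drug before, set against saline. The median log2 difference over the 53 genes was −0.09, against −0.00 over all kept probes, and 48 genes had the lower mean in acute (50.1% of all kept probes did). No gene passed limma's test after Benjamini-Hochberg adjustment over 25478 probes, for which 0% of probes passed, and the lowest adjusted p of a ribosomal protein gene was 1. At an unadjusted p under 0.05, 3 genes were lower, Rplp2, Rpl36a and Rpl21, against 2.22% of all kept probes, and 0 were higher, against 2.23%. All 3 acute arrays lay below all 3 saline arrays for 12 genes, against 3.87% of probes, and above them for 0, against 3.47%. For 39 genes the 95% interval of the difference stayed within 1.3-fold in either direction, against 29.7% of probes. The criteria stated for the series, at least 1.3-fold (0.38 in log2) with an unadjusted p under 0.05, were met by 0 of the 53 genes, against 1.33% of probes downwards and 1.44% upwards.

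Rplp2 (probe ILMN_2924136, chr7:141447651-141451359) is an acidic protein of the ribosomal stalk, which recruits elongation factors to the large subunit. Its log2 intensity was 13.08, 12.88 and 13.14 in acute pools, 13.20, 13.14 and 13.06 in repeated pools, 13.15, 13.14 and 13.35 in withdrawal pools, and 13.33, 13.40 and 13.23 in saline pools. The acute pools lay wholly below saline, as did the repeated pools, while withdrawal pool 3 lay among the saline values. Acute minus saline was −0.28 ± 0.10 (SE, n = 3 pools a group), or 0.821-fold, with limma adjusted p = 1.

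Rpl36a (probe ILMN_2753219, chrX:134585654-134588062) encodes a large subunit protein near the exit site of the ribosome and is X-linked. It read 11.75, 11.83 and 11.74 in acute pools, 11.82, 11.80 and 11.79 in repeated pools, 11.68, 11.84 and 11.88 in withdrawal pools, and 12.01, 12.10 and 11.94 in saline pools. None of the 9 cocaine arrays reached the lowest saline array. The differences from saline were −0.24 in acute, −0.21 in repeated and −0.21 in withdrawal, each ± 0.09 (SE), with limma adjusted p = 1, 0.531 and 0.626. Its autosomal paralog Rpl36al, which the symbol rule does not take, lay at −0.07, −0.23 and −0.27 (SE 0.12). Whether the probes of such near-identical genes, or of processed pseudogenes, bind each other's transcripts was not tested.

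Rpl28, a large subunit protein, lay at −0.25 ± 0.12 in acute against saline, from 13.18, 12.80 and 13.02 in acute pools and 13.42, 13.20 and 13.11 in saline pools, which overlap. Its second, dimmer probe gave 0.07 ± 0.16 for the same difference. Rps27l, a p53-responsive paralog of a small subunit gene, lay at −0.24 ± 0.12, with 10.61, 10.43 and 10.77 in acute pools and 10.93, 10.88 and 10.72 in saline pools. Both adjusted p-values from limma were 1. The count of 3 genes at an unadjusted p under 0.05 was 0 without saline pool 2 and 7 without saline pool 3.

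Repeated cocaine against saline asks what 8 daily injections do, the last of them 1 h before. The median log2 difference was −0.15, against 0.00 over all kept probes, and 48 of 53 genes had the lower mean in repeated (49.7% of all probes). Here 12 genes were lower at an unadjusted p under 0.05, against 4.58% of probes, 7 of the large and 5 of the small subunit. At this threshold 0 were higher, against 4.31%. None passed the adjusted test, as was so for 0% of probes, and the lowest limma adjusted p was 0.423. All 3 repeated arrays lay below all 3 saline arrays for 27 genes, against 8.52% of probes, and above them for 0, against 8.10%. The 95% interval stayed within 1.3-fold for 26 genes, against 24.0% of probes. No gene met the series criteria, met downwards by 2.10% of probes and upwards by 2.49%.

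Rpl24 (probe ILMN_2936118, chr16:55966275-55971437) sits at the interface of the subunits, and a mutation of it in mice gives the belly spot and tail trait. Its log2 intensity was 12.26, 12.27 and 12.08 in acute pools, 12.10, 12.00 and 12.05 in repeated pools, 12.08, 12.08 and 12.21 in withdrawal pools, and 12.52, 12.33 and 12.33 in saline pools. All 9 cocaine arrays lay below all 3 saline arrays. The differences from saline were −0.19 in acute, −0.34 in repeated and −0.27 in withdrawal (SE 0.09), with limma adjusted p = 1, 0.423 and 0.626. In repeated the value was 0.788-fold that of saline.

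Rps13 (probe ILMN_2940017, chr7:116331507-116334190), the small subunit counterpart of bacterial S15, read 12.14, 12.31 and 11.98 in acute pools, 12.02, 11.91 and 11.92 in repeated pools, 11.95, 12.05 and 12.12 in withdrawal pools, and 12.26, 12.30 and 12.37 in saline pools. Acute pool 2 lay among the saline values and the other 8 cocaine arrays below them. Repeated minus saline was −0.36 ± 0.10 (limma adjusted p = 0.432), acute minus saline −0.16 and withdrawal minus saline −0.27. A second, dimmer Rps13 probe gave 0.08 ± 0.09 for repeated minus saline, so the probes of this gene disagree.

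Rpl7a (probe ILMN_2819841, chr2:26910685-26913312) belongs to the L7Ae family of RNA-binding proteins and has the long pyrimidine run printed above. Its values were 11.04, 10.87 and 10.82 in acute pools, 10.86, 10.74 and 10.73 in repeated pools, 10.75, 10.90 and 10.97 in withdrawal pools, and 11.20, 11.18 and 10.95 in saline pools. The repeated pools lay below saline without overlap. Their difference was −0.33 ± 0.11 (limma adjusted p = 0.459), beside −0.20 in acute and −0.24 in withdrawal.

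Rpl13a (probe ILMN_2707834, chr7:45125563-45128745), a large subunit protein that can leave the ribosome to silence inflammatory mRNAs in myeloid cells, had 10.10, 10.20 and 9.91 in acute pools, 9.95, 9.77 and 9.78 in repeated pools, 9.85, 9.74 and 9.92 in withdrawal pools, and 10.16, 10.13 and 10.10 in saline pools. Repeated and withdrawal pools lay below every saline pool, and acute pool 2 above them. The differences from saline were −0.30 ± 0.10 in repeated and −0.29 ± 0.10 in withdrawal, with limma adjusted p = 0.467 and 0.626, and −0.06 in acute.

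Rps6 (probe ILMN_2893077, chr4:86854099-86857367), the S6 kinase substrate, had 12.63, 12.62 and 12.36 in acute pools, 12.27, 12.32 and 12.38 in repeated pools, 12.28, 12.46 and 12.40 in withdrawal pools, and 12.54, 12.65 and 12.62 in saline pools. As with Rpl13a, acute pools 1 and 2 read like saline and acute pool 3 like the repeated pools. Repeated minus saline was −0.28 ± 0.10 (limma adjusted p = 0.485), withdrawal minus saline −0.23 ± 0.10 (adjusted p = 0.630) and acute minus saline −0.07 ± 0.10. Rps19, whose human gene is the one most often mutated in Diamond-Blackfan anaemia, lay at −0.08, −0.23 and −0.22 (SE 0.09), and Rps9, another small subunit protein, at −0.24 ± 0.09 in repeated. Without acute pool 3 the acute differences of Rpl13a, Rps6 and Rps19 were 0.02, 0.02 and 0.00. These are values of the brightest probe. With the mean of its 2 kept probes on all arrays, Rps19 lay at −0.20 in acute.

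**Figure D2:**
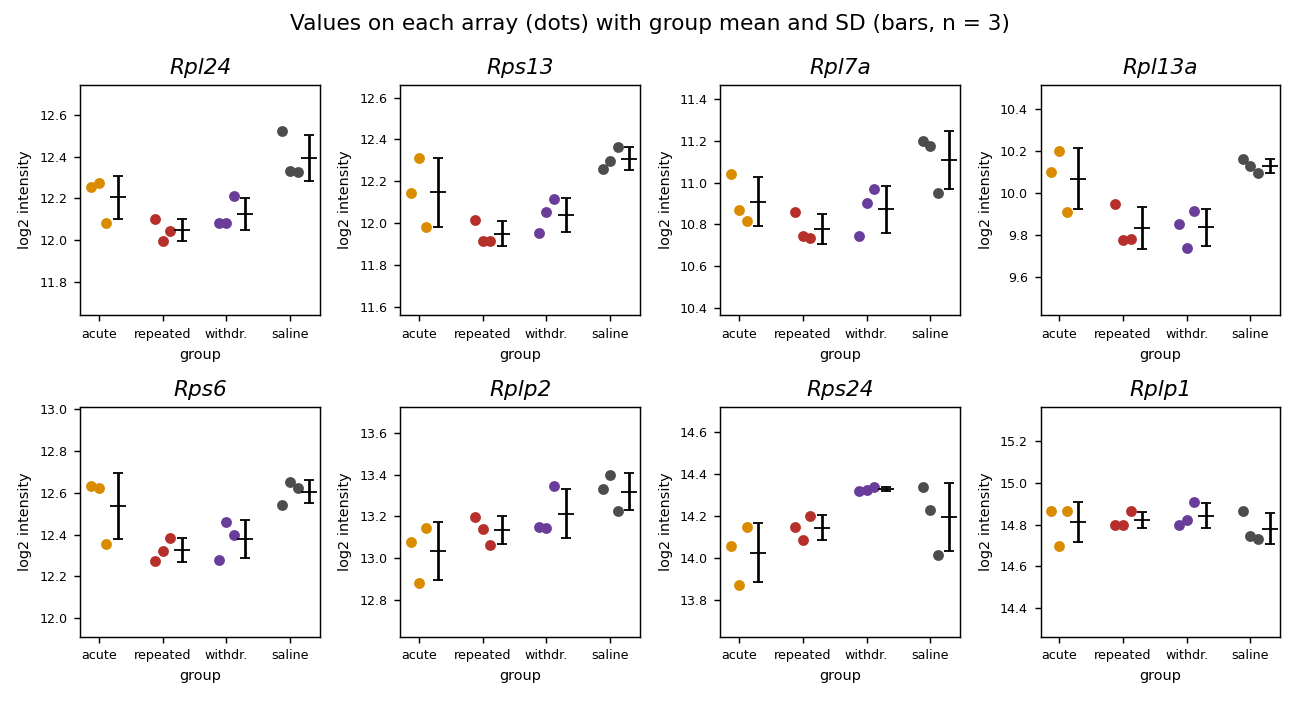
Log2 intensity (vertical axis, each panel spanning the same range) of 8 ribosomal protein genes on each array, by group (horizontal axis; withdr. is withdrawal), with the group mean and SD (bars, n = 3). Rpl24 lies below saline on all 9 cocaine arrays, Rpl13a and Rps6 overlap saline in acute, and Rplp1 shows no separation of the groups.

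The count of 12 genes in repeated minus saline rested on few arrays. It was 5 without repeated pool 2, 6 without repeated pool 3, and 7 without saline pool 1 or saline pool 3, while the median of the 53 genes stayed between −0.18 and −0.13 when each array was left out in turn.

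Withdrawal against saline asks how a cocaine challenge is answered after a course of cocaine and a week without it. The median difference was −0.15, against 0.00 over all kept probes, and 47 genes had the lower mean in withdrawal (49.2% of all probes). At an unadjusted p under 0.05, 11 genes were lower, against 3.61% of probes, 6 of the large and 5 of the small subunit, and 0 were higher, against 4.20%. None passed the adjusted test (0% of probes), and the lowest limma adjusted p was 0.622. All withdrawal arrays lay below all saline arrays for 19 genes, against 7.14% of probes, and above them for 0, against 7.16%. The 95% interval stayed within 1.3-fold for 30 genes, against 24.1% of probes. No gene met the series criteria, met downwards by 1.46% of probes and upwards by 2.48%.

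Rpl19 (probe ILMN_2869225, chr11:98022003-98030493), which forms a bridge to the small subunit, led this comparison. It read 11.21, 11.28 and 11.15 in acute pools, 11.32, 11.34 and 11.18 in repeated pools, 11.01, 11.16 and 11.24 in withdrawal pools, and 11.37, 11.49 and 11.39 in saline pools. All 9 cocaine arrays lay below saline, repeated pools 1 and 2 by the least. Withdrawal minus saline was −0.28 ± 0.09 (limma adjusted p = 0.622), beside −0.20 in acute and −0.13 in repeated. Rpl30, a large subunit protein with an RNA-binding fold, was at −0.31 ± 0.12 in withdrawal, with 10.20, 10.57 and 10.58 in withdrawal pools and 10.72, 10.78 and 10.78 in saline pools. Rps10, which lies near the mRNA entry channel, was at −0.23 ± 0.09.

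Withdrawal pool 1 weighed most in this comparison. Without it the median of the 53 genes was −0.10, and the count at an unadjusted p under 0.05 was 1. That count was 4 without saline pool 2 and 7 without saline pool 3.

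**Figure D3:**
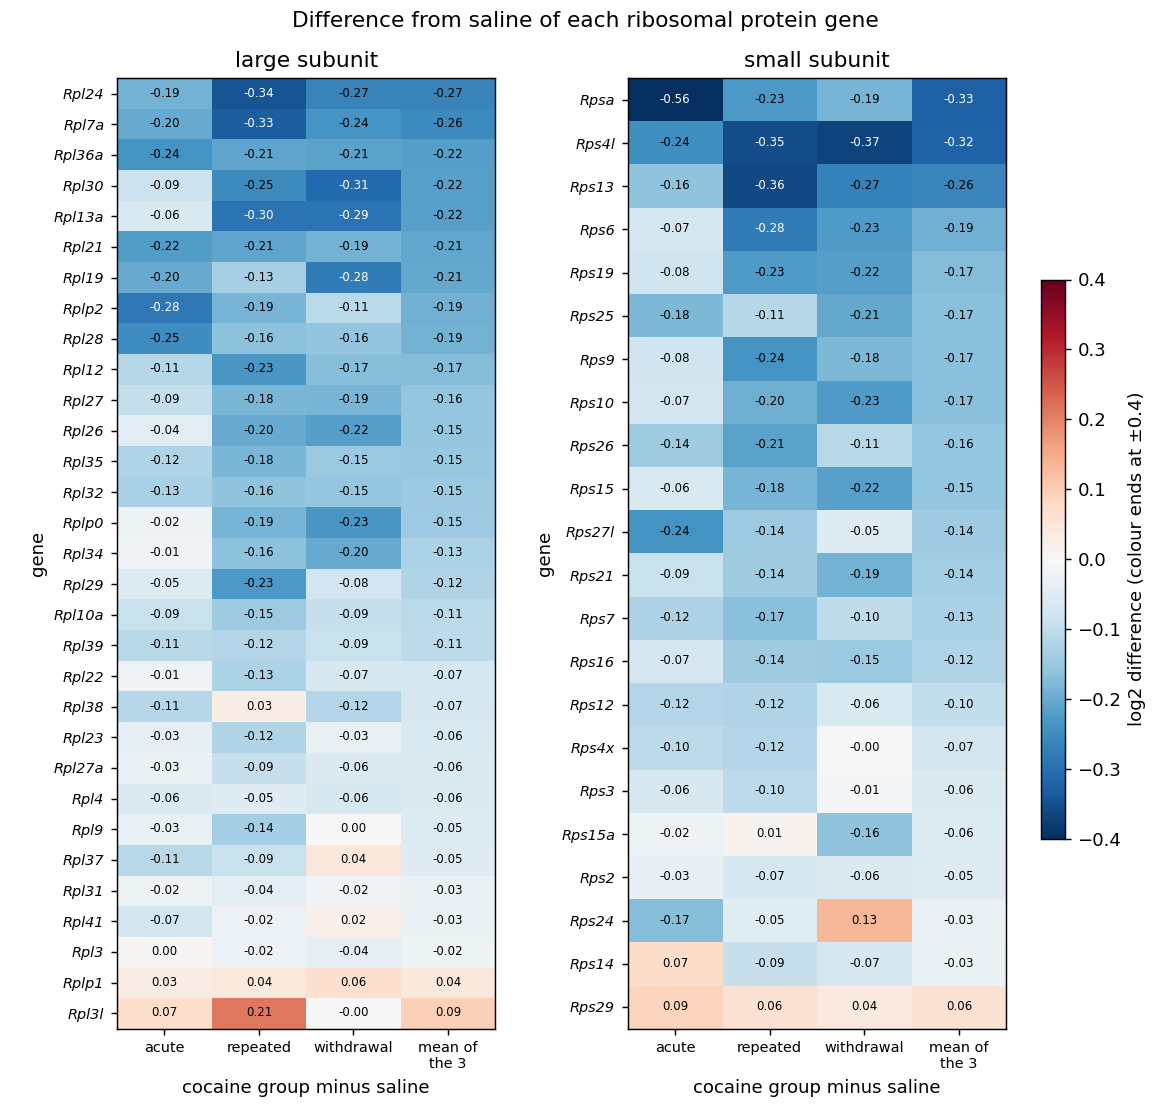
Log2 difference from saline (colour and number) of each of the 31 large subunit and 22 small subunit genes (rows, ordered by the last column) in the acute, repeated and withdrawal groups and for the mean of the 3 (columns). Blue is lower than saline; the repeated and withdrawal columns each hold more values below −0.20 than the acute column, and Rps29 and Rplp1 are above 0 in every column.

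The 3 cocaine groups were then compared with each other. The saline arrays do not enter these differences, but they enter their SEs and p-values, since all groups share 1 estimate of the spread. Repeated minus acute had a median of −0.05, with 37 of 53 genes lower in repeated (49.4% of all probes). At an unadjusted p under 0.05, 1 gene, Rpl13a at −0.24 ± 0.10, was lower (2.68% of probes) and 0 were higher (2.74%). No ribosomal protein gene passed the adjusted test, which 0.00392% of probes passed, and the lowest limma adjusted p was 0.878. All repeated arrays lay below all acute arrays for Rpl10a, Rpl35 and Rplp0 (3 genes, against 5.17% of probes) and above them for Rpl38 (1 gene, against 5.20%). The dimmer Rplp0 probe had the opposite sign here. For 42 genes the 95% interval stayed within 1.3-fold (27.3% of probes). The count at an unadjusted p under 0.05 was 7 without acute pool 3 and 0 without acute pool 1 or 2, repeated pool 2 or 3, withdrawal pool 1 or 3, or any saline pool.

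Withdrawal minus acute had a median of −0.03, with 34 genes lower in withdrawal (49.0% of probes). Rpl13a was lower at −0.23 ± 0.10, the only gene lower at an unadjusted p under 0.05 (2.54% of probes), and Rps24 was the only one higher (3.11%). Rps24, a small subunit gene with known alternative splicing, had 14.06, 13.87 and 14.15 in acute pools, 14.15, 14.08 and 14.20 in repeated pools, 14.32, 14.33 and 14.34 in withdrawal pools, and 14.34, 14.23 and 14.02 in saline pools. The withdrawal pools of Rps24 were close together and above every acute and every repeated pool, within the range of saline. Withdrawal minus acute was 0.30 ± 0.11 (limma adjusted p = 0.848; 0% of probes passed). Its 2 dimmer probes gave 0.05 ± 0.16 and 0.15 ± 0.23 for the same difference. All withdrawal arrays lay below all acute arrays for Rps14 (1 gene, against 4.62% of probes) and above them for Rpl37 and Rps24 (2 genes, against 5.08%), and 39 intervals stayed within 1.3-fold (27.0% of probes). For genes lower at an unadjusted p under 0.05 the count was 5 without acute pool 3, 2 without withdrawal pool 3, and 0 with the replicate number as a block or without acute pool 1 or 2, repeated pool 2 or 3, withdrawal pool 1 or 2, or any saline pool.

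Withdrawal minus repeated had a median of 0.03, and 19 genes were lower in withdrawal (48.7% of probes). No gene passed at an unadjusted p under 0.05 in either direction, against 0.871% of probes lower and 1.24% higher, and none after adjustment (0% of probes, lowest limma adjusted p = 1). For 48 of 53 genes the 95% interval stayed within 1.3-fold, against 33.3% of probes. All withdrawal arrays lay below all repeated arrays for Rpl38 (1 gene, against 3.39% of probes) and above them for Rpl9 and Rps24 (2 genes, against 3.96%). Leaving out withdrawal pool 2 brought the count of lower genes to 1.

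The mean of the 3 cocaine groups was set against saline as a further contrast. Its median was −0.14, and 50 of 53 genes were lower in the cocaine groups (49.2% of probes). At an unadjusted p under 0.05, 13 genes were lower, against 4.20% of probes, and 0 were higher, against 4.16%. None passed after adjustment (0% of probes, lowest limma adjusted p = 0.493). All 9 cocaine arrays lay below all 3 saline arrays for Rpl19, Rpl24, Rpl32 and Rpl36a, 4 of 53 genes, against 0.981% of probes, and above them for 0, against 0.852%. The 95% interval stayed within 1.3-fold for 41 genes, against 38.1% of probes. The count of 13 was 8 without repeated pool 2, repeated pool 3 or withdrawal pool 1, 7 without saline pool 1 and 5 without saline pool 2. In limma's F test over the 4 groups, Rpl24, Rps13 and Rpl13a had an unadjusted p under 0.05, 3 of 53 genes against 6.15% of probes, and none passed after adjustment (0% of probes, lowest adjusted p = 0.812).

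The comparisons with saline all use the same 3 saline pools, so a high saline pool moves them together and their likeness is no independent evidence.

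The 3 stalk genes had unlike values. Rplp0, the stalk base that anchors the acidic proteins, had 7.47, 7.57 and 7.53 in acute pools, 7.29, 7.36 and 7.42 in repeated pools, 7.16, 7.29 and 7.49 in withdrawal pools, and 7.46, 7.68 and 7.49 in saline pools. By this probe, the brighter of 2 kept, Rplp0 lay at −0.02, −0.19 and −0.23 (SE 0.11) against saline in acute, repeated and withdrawal. With the mean of both probes the acute difference was −0.38. The 2 probes disagreed in sign by over 0.3 in repeated minus acute and in withdrawal minus acute. Rplp1, the partner of Rplp2 and the brightest probe of all 53, had 14.87, 14.70 and 14.87 in acute pools, 14.80, 14.80 and 14.87 in repeated pools, 14.80, 14.82 and 14.91 in withdrawal pools, and 14.87, 14.74 and 14.73 in saline pools. The groups overlap, and the differences from saline were 0.03, 0.04 and 0.06 (SE 0.09). Rplp2 was given above, at −0.28 in acute.

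Rpsa, a small subunit protein also known as the laminin receptor, had the dimmest probe and the widest spread. It read 4.51, 4.73 and 4.15 in acute pools, 5.15, 4.86 and 4.37 in repeated pools, 5.35, 4.94 and 4.22 in withdrawal pools, and 4.62, 5.26 and 5.20 in saline pools. Its difference of −0.56 ± 0.31 in acute was the farthest from 0 among the 53 genes and within the spread between pools. The differences were −0.23 and −0.19 in repeated and withdrawal.

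Among paralogs, Rps4x, the X-linked gene of the small subunit protein, lay at −0.10 and −0.12 (SE 0.10) in acute and repeated against saline, with means of 13.30 in both withdrawal and saline. Rps4l, which RefSeq annotates as a transcribed pseudogene, read 8.12, 8.22 and 7.73 in acute pools, 8.05, 7.93 and 7.76 in repeated pools, 7.63, 8.01 and 8.05 in withdrawal pools, and 8.39, 8.20 and 8.21 in saline pools. Repeated and withdrawal pools lay below saline without overlap, at −0.35 and −0.37 (SE 0.16; limma adjusted p = 0.559 and 0.630). Rpl3, a large subunit protein near the peptidyl transferase centre, lay at 0.00, −0.02 and −0.04 (SE 0.08), and its muscle-restricted paralog Rpl3l, a dim probe here, at 0.07 and 0.21 (SE 0.16) in acute and repeated with means of 5.92 in both withdrawal and saline. Rpl22l1, the paralog of Rpl22 that the rule does not take, lay at −0.37, −0.20 and −0.29 (SE 0.15). Rps29, a zinc-binding small subunit protein, lay above saline, at 0.09, 0.06 and 0.04 (SE 0.08). The farthest above saline were Rpl3l in repeated, at the 0.21 just given, and Rps24 in withdrawal, at 0.13.

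Probe intensity went with the size of the difference. For the mean of the 3 cocaine groups minus saline, the median was −0.19 over the dimmest 18 genes, −0.16 over the middle 17 and −0.05 over the brightest 18. By count, 17, 17 and 16 of them were lower than saline. Most genes are bright: 43 of the 53 probes were in the brightest 10% of kept probes, where their median was −0.13 and that of the other probes 0.01. Whether signal near the top of the scale is compressed was not tested.

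**Figure D4:**
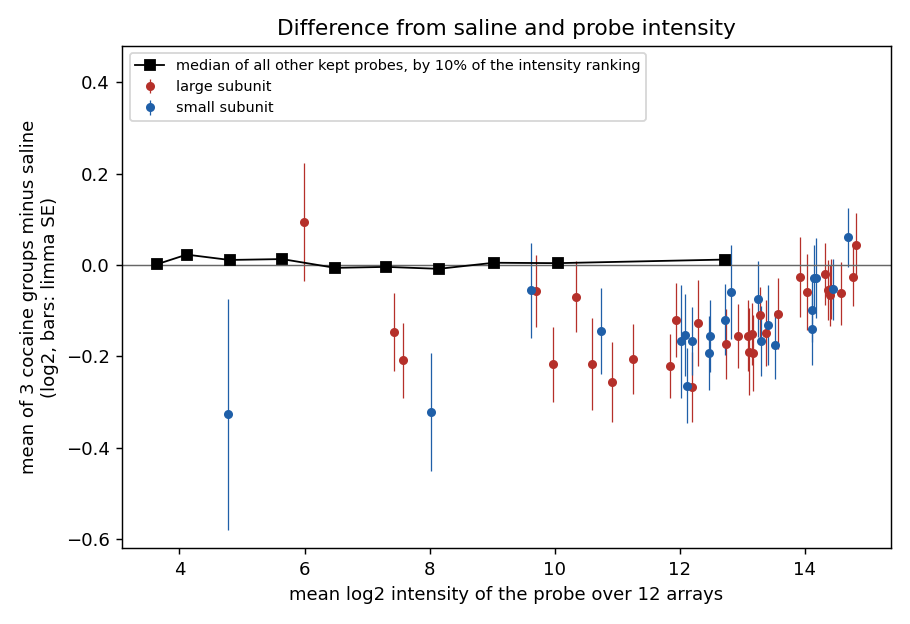
Difference of the mean of the 3 cocaine groups from saline (vertical axis, log2, bars limma SE) against the mean log2 intensity of each gene's probe over 12 arrays (horizontal axis). Coloured points are the 53 genes and black squares the medians of all other kept probes in each 10% of the intensity ranking, which stay near 0; the brightest genes lie closest to 0.

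For 18 of the 53 genes more than 1 probe passed the detection filter. All probes of a gene were lower than saline for 13 genes in acute, 12 in repeated and 15 in withdrawal. The 25 probes not used as the gene's own had medians of −0.09, −0.15 and −0.19, and 19, 19 and 20 of them were lower. Probes of 1 gene disagreed in sign by over 0.3 for Rpl28 in acute and for Rpl27a, Rpl37, Rpl38, Rpl4 and Rps13 in repeated. The bright Rpl38 probe, for a protein known in mice for its part in translating Hox mRNAs, was at 0.03 ± 0.08 in repeated and its dimmer probe at −0.30 ± 0.10.

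Other genes of the protein synthesis and energy machinery were described in the same fits, and 0 genes of any list passed the adjusted test. Values are given for acute, repeated and withdrawal against saline, in that order. Of all kept probes, 50.1%, 49.7% and 49.2% had the lower mean. At an unadjusted p under 0.05 in limma, 2.22%, 4.58% and 3.61% of them were lower and 2.23%, 4.31% and 4.20% higher. Mitochondrial ribosomal proteins, which build the separate ribosome of that organelle, had medians of −0.08, −0.15 and −0.17 over 73 measured genes, with 57, 69 and 69 lower. Of the 73 genes, 3, 14 and 17 were lower at an unadjusted p under 0.05 and 0 higher. The median deviation over them was 0.127, 0.117 and 0.037 in saline pools, and saline pool 3 lay below acute pool 1 (0.081). Mrps16 lay at −0.44 ± 0.09 in repeated and −0.34 ± 0.09 in withdrawal (limma adjusted p = 0.390 and 0.609). Subunits of oxidative phosphorylation had medians of −0.08, −0.12 and −0.14 over 74 genes, with 62, 63 and 65 lower and 3, 11 and 8 of them at an unadjusted p under 0.05. Their median deviation was 0.123, 0.173 and −0.001 in saline pools. Saline pool 3 thus lay below acute pools 1 (0.039) and 3 (0.010) and withdrawal pool 2 (0.034). Sdhc, of respiratory complex II, lay at −0.31 and −0.29 (SE 0.08) in repeated and withdrawal. Proteasome subunits had medians of −0.06, −0.09 and −0.09 over 35 genes, with 24, 26 and 26 lower.

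The remaining lists hold genes that act on the ribosome or share its mode of translation control. Translation factors had medians of −0.03, −0.01 and −0.01 over 53 genes, with 36, 28 and 28 lower. Genes of mTOR and S6 kinase signalling had medians of 0.00, 0.01 and −0.00 over 19 genes, with 9, 9 and 10 lower. In that list Rps6ka5, a nuclear kinase activated by ERK signalling, lay at 0.32 ± 0.16 in repeated and 0.40 ± 0.16 in withdrawal. Ribosome assembly genes had medians of −0.04, −0.05 and −0.09 over 34 genes, with 22, 21 and 27 lower. Among them Ubtf, which drives transcription of ribosomal DNA, lay at −0.26 and −0.27 (SE 0.11) in repeated and withdrawal, and Pes1, a large subunit assembly factor, at 0.25 ± 0.09 in repeated. TOP mRNAs that encode no ribosomal protein had medians of −0.09, −0.05 and −0.09 over 16 genes, with 12, 10 and 10 lower. Whether these lists differ from the ribosomal protein genes was not tested.

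**Figure D5:**
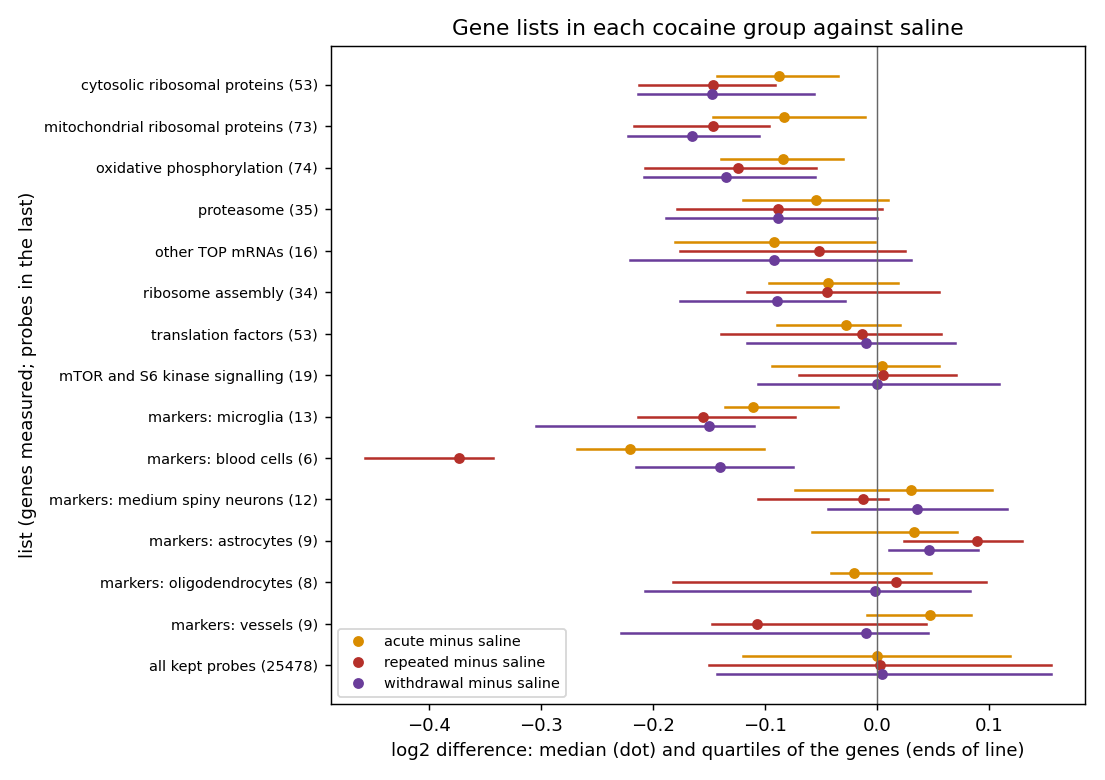
Median (dot) and quartiles of the genes (ends of the line) of the log2 difference from saline (horizontal axis) for each list (rows, with the number of genes measured, or of probes in the last row) in the acute, repeated and withdrawal groups. The cytosolic and mitochondrial ribosomal protein lists, oxidative phosphorylation and the microglia markers have all 3 medians between −0.17 and −0.08. All kept probes centre on 0 with a wide line.

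Markers of microglia and blood cells also lay below saline. Of 13 measured microglia markers, 10, 10 and 12 were lower than saline in acute, repeated and withdrawal, with medians of −0.11, −0.16 and −0.15. Their summed intensity was 8156 to 9800 in acute pools, 8182 to 9214 in repeated pools, 7841 to 8711 in withdrawal pools and 8821 to 9278 in saline pools. Of 6 measured blood cell markers, 6, 6 and 5 were lower, with medians of −0.22, −0.37 and −0.14, and with sums of 19174 to 22692 in acute pools, 15237 to 18263 in repeated pools, 15239 to 25671 in withdrawal pools and 18235 to 26452 in saline pools. Cd52, a lymphocyte and myeloid surface protein, lay at −0.37, −0.55 and −0.29 (SE 0.12), while S100a9 and Ptprc were detected on 0 arrays. Their part in the result was not tested.

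Markers of the region's own neurons lay near 0. The 12 medium spiny neuron markers had medians of 0.03, −0.01 and 0.04, with 5, 8 and 5 lower. Their sums were 71577 to 74430 in acute pools, 69065 to 72122 in repeated pools, 68644 to 76445 in withdrawal pools and 66418 to 75621 in saline pools, which overlap. Medians of the 9 astrocyte markers were 0.03, 0.09 and 0.05, and those of the 8 oligodendrocyte markers −0.02, 0.02 and −0.00. The 9 vessel markers had 0.05, −0.11 and −0.01. The 5 cortical neuron markers had medians of 1.49, 0.39 and 0.76, the farthest from 0 of the marker lists, with 1 gene lower in each comparison. Their sums overlapped between groups, with values of 568 to 1489 in acute pools, 274 to 1467 in repeated pools, 349 to 1941 in withdrawal pools and 280 to 2007 in saline pools. The 5 choroid plexus and ependyma markers had medians of −0.11, −0.11 and −0.12, with 4, 3 and 3 lower. Single genes of this list spread widely, from −3.96 to 0.62 in acute, −1.35 to 0.51 in repeated and −1.35 to 0.40 in withdrawal. Only 3 of them were detected on all 12 arrays.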

How the data were processed

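The authors deposited 2 intensity tables on a linear scale. Per the labels, background was subtracted and the arrays were quantile normalized in BeadStudio (version: not given in the sources used here). On inspection both tables were found to be quantile normalized, and the background-subtracted one equals the other minus a constant of 60.7. Detection p-values for each probe are, per the file headers, part of the deposited raw table. Intensities below 10 were set to 10 before log2, and 25478 of 45281 probes were kept. The 4 groups of 3 arrays were fitted together with limma 3.58.1 in R 4.3.3 (lmFit, eBayes, no covariate), two-sided, with Benjamini-Hochberg adjustment over the kept probes. This step was tested on simulated data for repeated minus saline. A log2 change of 0.5 passed the adjusted limma test for 34% of 50 genes, a change of 1 for 88%, and changes of 2 and 3 for 100%. Of the unchanged probes 9 passed. Smaller changes, such as most of those of the ribosomal protein genes, were not simulated. Errors are limma SEs. The number of arrays limits the precision.

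The ribosomal protein genes, the other gene lists and the tests were chosen with earlier results of these data known. Genes described singly were drawn from these, not all of which are shown: the 4 with the smallest p in each direction of a comparison, the 6 by the F test, the brightest and dimmest 6, the stalk genes, Rpsa, Rps6, paralogs, and genes whose probes disagree or run against the median, and from each other list the 2 with the smallest p in each direction. Rpl10a, Rpl32, Rpl35, Rps9, Rps10 and Rps19 fall outside this rule and were chosen after their values were seen. Same-numbered arrays deviated together (correlation over 0.1 for every number) in repeated and withdrawal against saline (lowest 0.133 and 0.166) and in repeated against acute (lowest 0.246). Alternatives covered the floor, background, filter, probes, centring, model, block and each array left out.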

Additional observations from a re-analysis of the deposited data

How the results depend on the processing

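No ribosomal protein gene passed the adjusted test in any comparison or in the F test under any alternative run, and the lowest adjusted p over all of them was 0.270, in repeated minus saline. The medians kept their sign under every alternative. With each array left out in turn they ranged from −0.12 to −0.07 in acute minus saline, −0.18 to −0.13 in repeated minus saline, −0.16 to −0.10 in withdrawal minus saline, −0.07 to −0.04 in repeated minus acute, −0.06 to −0.01 in withdrawal minus acute, 0.01 to 0.06 in withdrawal minus repeated, and −0.16 to −0.11 for the mean of the 3 cocaine groups minus saline.

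Counts of genes lower at an unadjusted p under 0.05 moved more, and the cause was not tested. In the order just given, they were 11, 19, 23, 6, 5, 1 and 22 with no filter on detection, which takes in all 59 genes. With an intensity trend in eBayes they were 7, 20, 18, 5, 3, 0 and 20. The share of all probes was not counted under the alternatives, so a change in calls over all probes cannot be told apart. With background left in, or with an offset of 50, they were 5 in acute minus saline and 2 in repeated minus acute. The mean of all kept probes gave 2 in repeated minus acute. With only the arrays compared, which leaves fewer arrays for the spread, they were 0, 5, 0 and 0 in acute and withdrawal minus saline and in repeated and withdrawal minus acute. The replicate block gave 0 in withdrawal minus acute and moved no other count by over 1.5 times. In acute minus saline, withdrawal minus acute and withdrawal minus repeated, the deviations of arrays numbered 1 correlated at 0.459, 0.402 and 0.414. The lowest correlations there, those of arrays numbered 3, were 0.0649, 0.0363 and 0.0255. Leaving out arrays gave ranges of 0 to 7, 5 to 13, 1 to 12, 0 to 7, 0 to 5, 0 to 1 and 5 to 16.

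The mean of all kept probes turned Rpl38 in repeated minus saline to −0.13, Rplp0 in withdrawal minus acute to 0.13, and Rps24 to 0.015 in acute and 0.075 in repeated minus saline. Leaving out single arrays turned these small differences from saline. In acute, Rpl13a ranged from −0.13 to 0.019, Rps6 from −0.12 to 0.021, Rps19 from −0.14 to 0.0037, Rplp0 from −0.064 to 0.049, Rpl3 from −0.039 to 0.028 and Rpl3l from −0.047 to 0.14. In repeated, Rpl3 ranged from −0.046 to 0.018 and Rps24 from −0.14 to 0.022. In withdrawal, Rpl3l ranged from −0.12 to 0.079, Rpl37 from −0.0039 to 0.087, Rps27l from −0.11 to 0.019, Rps4x from −0.039 to 0.068 and Rpsa from −0.44 to 0.12. For the mean of the 3, Rpl3l ranged from −0.024 to 0.16. With 3 pools a group the median SE of a difference between groups was 0.10 in log2, and Rpsa, the probe nearest to background, had an SE of 0.31.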
